A study of Mus musculus with 80 samples.

Results

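The expression of 7 Six- and Eya-family genes was followed in mouse muscle stem cells (MuSCs) taken from extraocular muscles (EOM) and from the tibialis anterior (TA), before and after grafting into the TA. The 7 genes, Six2, Six4, Six5, Eya1, Eya2, Eya3 and Eya4, were found by symbol in a table of 25899 genes. Donor cells came from Tg:Pax7-nGFP mice, male littermates on a C57BL/6;DBA2 F1/JRj background, in which regulatory sequences of Pax7 drive a nuclear GFP, so that cells were sorted on the activity of a transgene of Pax7. The donors were 7.6 weeks old in Experiment 1 and 7 weeks old in Experiment 2 per the labels. MuSCs of each donor were sorted from both muscles, and 500 cells per library were kept as the pre-graft samples. The EOM and TA cells of a donor were injected into the opposite, cardiotoxin-injured TA muscles of the same Rag2-/-;γC-/- recipient, which lacks T, B and NK cells but keeps its own GFP-negative stem cells, and GFP-positive cells were sorted again at day 21 per the labels, while the results of the study give a later time. RNA of 40 such samples was sequenced, and 30 libraries of 9 donors passed the quality control of the study: 8 EOM pre-graft, 8 TA pre-graft, 7 EOM graft and 7 TA graft. No pair of the 40 libraries held identical values. The question asked of the comparisons below was which of these genes differed between EOM and TA cells of the same donors, and which differed after EOM cells had been moved into a limb muscle, with TA cells moved into the TA as the control for grafting itself.

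Six-family proteins are homeodomain transcription factors that bind a DNA motif known as the MEF3 site. Eya proteins do not bind DNA themselves: they are recruited by Six-family proteins as co-activators, and carry a phosphatase domain. In muscle development this network acts with Pax3 and Pax7, with Dach and Ski family cofactors and with Groucho-type corepressors, and the myogenic regulatory genes Myf5, Myod1, Myog and Myf6 are among its known targets.

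The letters TCAGGTTTC, a form of the MEF3 site, were searched on both strands of the RefSeq promoter windows around start sites (GRCm38.p6). These letters were in 141 of 32817 windows (0.430%). Of the 5 genes of the family that had a window, Six4 held them, and Six2, Six5, Eya3 and Eya4 did not. The table has no window for Eya1 and Eya2. Of the 9 target genes with a window, Myog held them. Both sites are shown because they are the only matches in the windows of these genes, with the motif in capitals and 10 bases on each side, 5′ to 3′ on the strand of the gene. The site of Myog lies at chr1:134289910-134289938 on the plus strand, 84 bases before the start site, outside annotated genes (GENCODE M21). The site of Six4 lies at chr12:73113326-73113354 on the minus strand and reads as the reverse complement, within an annotated UTR exon of Six4.
Myog: agaggggggcTCAGGTTTCtgtggcgttg
Six4: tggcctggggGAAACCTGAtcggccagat

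The values are log2 RPM (reads scaled to the size of the library), and where no read was found the value is a floor that depends on depth. Over the 30 libraries, mapped reads ranged from 3326270 to 14402975, and the reads recovered on genes from 963432 to 4169357. The RPM of all genes summed to between 1072417 and 1526294 per library rather than to the same total, and the sources used here do not state why, so an RPM here is not a share of all reads, and other scalings are given beside it below. The family was sparsely read after grafting. Of the 56 gene values of the EOM pre-graft libraries 4 were without a read (7.14%), and of the 56 of the TA pre-graft libraries 6 (10.7%), against 18 of 49 in each graft group (36.7%). The summed reads of the 7 genes ranged from 419 to 909 in EOM pre-graft libraries with a median of 721, from 157 to 418 in TA pre-graft libraries with a median of 302.5, from 14 to 472 in EOM graft libraries with a median of 108, and from 10 to 187 in TA graft libraries with a median of 80. The grafts also differed in other measures of the libraries. They came from a median of 35 sorted EOM cells (lowest 9) and 26 sorted TA cells (lowest 16) per the labels, in place of 500. Mitochondrial reads made up 2.91 to 8.16% of mapped reads in EOM pre-graft, 3.22 to 22.9% in TA pre-graft, 3.85 to 59.6% in EOM graft and 5.45 to 46.8% in TA graft libraries. Of the reads recovered on genes, mitochondrial genes held up to 9.18% in EOM pre-graft and 28.8% in TA pre-graft libraries. After grafting they held up to 67.6% in EOM and 81.1% in TA libraries, and the scaling without mitochondrial genes uses this share. Genes with a read numbered 12950 to 13947 in EOM pre-graft and 9758 to 13551 in EOM graft libraries. The part of these measures in the results on grafting was not tested. In bulk libraries such as these, fewer cells of a type and less RNA per cell cannot be told apart.

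**Figure D1:**
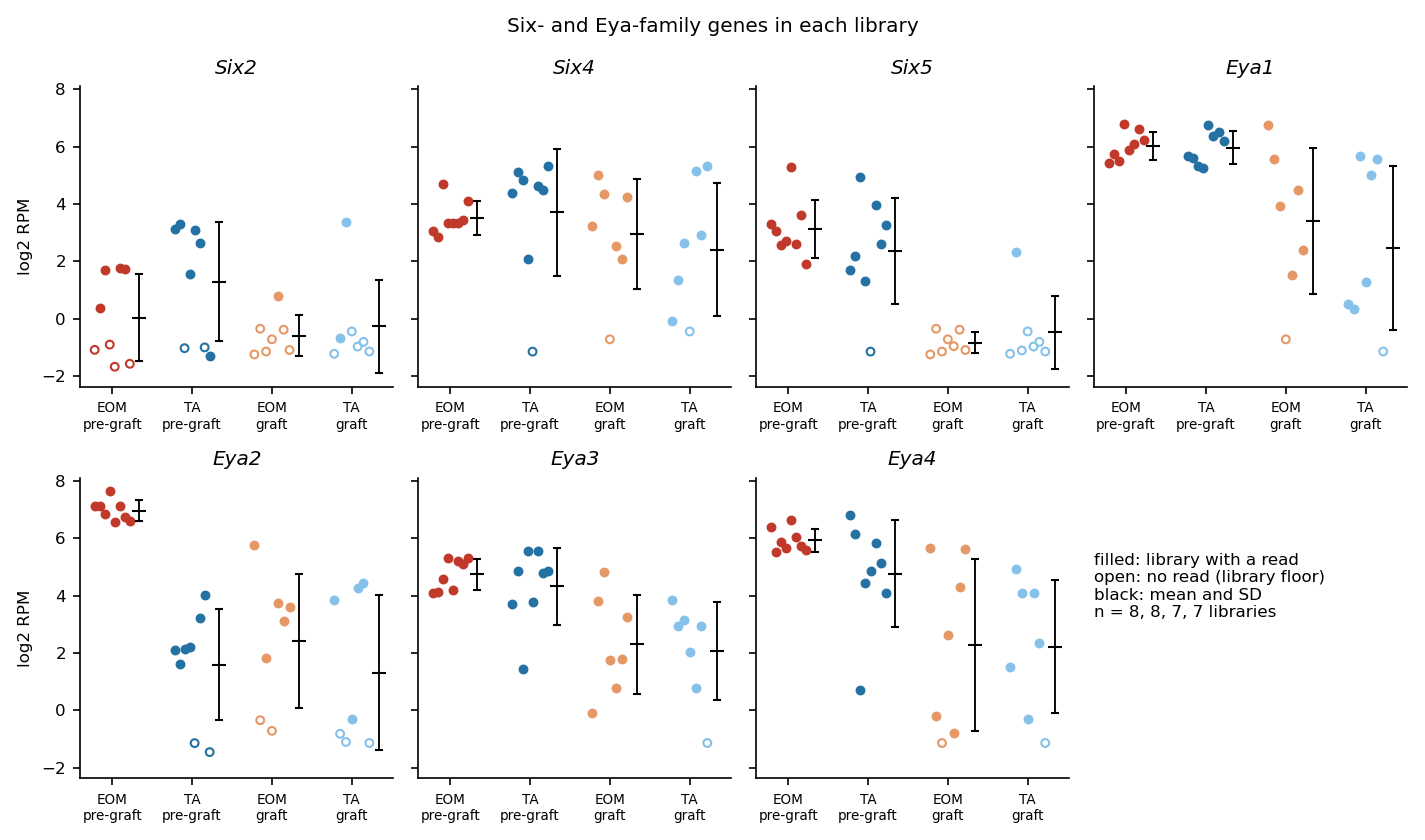
log2 RPM (y axis) of the 7 genes in each library of the 4 groups (x axis), with filled points for libraries with a read, open points for libraries without one, and the mean and SD in black (n = 8, 8, 7 and 7). Eya2 in the 8 EOM pre-graft libraries lies above all TA pre-graft and all graft libraries, and Six5 has no read in any of the 7 EOM graft libraries.

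Levels of different genes were compared per length, as RPM per kb of merged exons (GENCODE M21). In EOM pre-graft MuSCs Eya2 was the most abundant member, at 43.3 ± 11.5 RPM per kb (SD, n = 8), and its lowest library, 31.6, lay above the highest library of the next gene, Eya1, at 14.2. Eya1 followed at 8.83 ± 3.12, Eya4 at 6.67 ± 2.01, Eya3 at 5.02 ± 1.82, Six5 at 3.83 ± 3.82, Six4 at 1.15 ± 0.57 and Six2 at 0.666 ± 0.778, and each of these neighbours differed by less than the SD between libraries. The order in TA pre-graft MuSCs was led by Eya1 at 8.57 ± 3.33 RPM per kb, which exceeded Eya3, at 4.64 ± 2.81, by more than either SD although single libraries overlapped. Eya4, Six5, Six2, Six4 and Eya2 followed at 4.59, 3.01, 2.17, 2.02 and 1.77 RPM per kb, with differences between neighbours inside the SD. Eya2 was thus first of the 7 in EOM and last of the 7 in TA. After grafting, the means per length lay between 0 (Six5) and 4.41 ± 6.38 (Eya2) RPM per kb in EOM grafts and between 0.240 ± 0.635 (Six5) and 2.71 ± 3.37 (Eya2) in TA grafts, with libraries of every neighbouring pair overlapping.

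**Figure D2:**
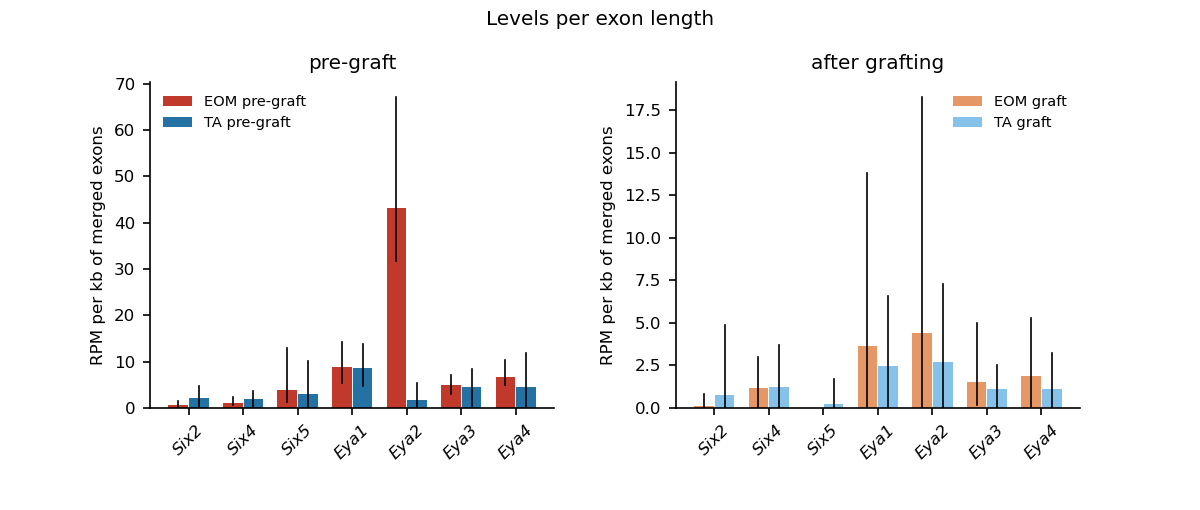
RPM per kb of merged exons (y axis) of each gene (x axis) before grafting (left) and after grafting (right, with its own scale), with bars for the mean over libraries and lines from the lowest to the highest library. Before grafting, the Eya2 bar of EOM stands at 43.3 and that of TA at 1.77, while the bars of Eya1 stand at 8.83 and 8.57.

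Eya2, a co-activator of the Eya family encoded at chr2:165595032-165771727 on the plus strand (GRCm38), set EOM apart from TA MuSCs before grafting. Its level in the 8 EOM pre-graft libraries ran from 6.55 to 7.64 log2 RPM with a median of 6.97, from 212 to 371 reads. In the 8 TA pre-graft libraries it ran from the floor, −1.45, to 4.02 with a median of 2.12, from 0 to 29 reads, and 2 libraries held none. All EOM libraries that passed quality control lay above all TA ones. An EOM pre-graft library that the study excluded as unlike its group, Exp2_3 with 11093142 mapped reads, held 29 reads of Eya2 at 3.67, within the range of TA. The separation of the groups depends on this exclusion. The mean difference was 5.37 on the log2 scale (SE 0.62; 95% interval 4.10 to 6.65), 41.5-fold, and EOM was higher in 7 of 7 donors with both libraries, by 2.72 to 8.05 (limma, adjusted p = 4.22e-06). The size of this fold depends on the floor at which the 2 unread TA libraries stand. The mean RPM of Eya2, with unread values at 0, was 128 in EOM and 5.23 in TA, a smaller ratio. The log2 difference was 5.15 in Experiment 1 (3 and 2 libraries) and 5.43 in Experiment 2 (5 and 6 libraries). The median difference of all genes was 0.30, and 99.9% of the genes tested had a lower difference than Eya2. How many of all genes separated the groups as fully is not given here.

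Eya2 was the only member called, that is, past an adjusted p of 0.05 and a log2 difference of 1, of the 7 tested before grafting, where 4.56% of all genes were called (603 of 13217). The other Eya genes were not called, and their intervals differ in width. Eya1, which like Eya2 acts as a co-activator in muscle progenitors, stood at 6.03 ± 0.49 log2 RPM in EOM and 5.97 ± 0.57 in TA (SD, n = 8 and 8). Its difference of 0.07 had an interval of −0.47 to 0.60, the narrowest of the family, and its sign turned to −0.10 when mitochondrial genes were left out of the scaling and to −0.20 with DESeq2. Eya3 stood at 4.74 ± 0.55 and 4.32 ± 1.35, a difference of 0.41 (−0.58 to 1.41) that was −0.13 with edgeR and −0.15 with DESeq2. Eya4 stood at 5.92 ± 0.40 and 4.76 ± 1.87, a difference of 1.17 (−0.012 to 2.35; limma, adjusted p = 0.208) that was −0.56 in Experiment 1 and 1.74 in Experiment 2. The spread of Eya4 and Eya3 in TA rests in part on a library, TA pre-graft Exp2_1 (donor 1 of Experiment 2), that held 3 and 5 reads of them.

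Six2, Six4 and Six5, the DNA-binding members, were not called before grafting either. Six4 ran from 2.84 to 4.69 log2 RPM with a median of 3.35 in EOM pre-graft libraries and from −1.14, no read, to 5.33 with a median of 4.56 in TA pre-graft libraries. Its difference of −0.19 (−1.69 to 1.31) was smaller than its spread, and was −1.22 in Experiment 1 and 0.15 in Experiment 2. The TA library without a read, Exp2_3, has no passing EOM library of the same donor. Six4 was lower in EOM in 6 of the 7 donors with both libraries (median difference −1.28), and with the donor as a replicate block, which uses this pairing, the difference was −1.05 (limma, adjusted p = 0.167). Six5 ran from 1.91 to 5.29 in EOM and from −1.14 to 4.94 in TA, a difference of 0.77 (−0.71 to 2.26). Six2 was near the floor. It had a read in 4 of 8 EOM and 6 of 8 TA pre-graft libraries, at most 9 and 17 reads, with a difference of −1.25 (−3.03 to 0.52; limma, adjusted p = 0.375). None of these intervals excludes a difference of more than 2-fold at this depth.

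**Figure D3:**
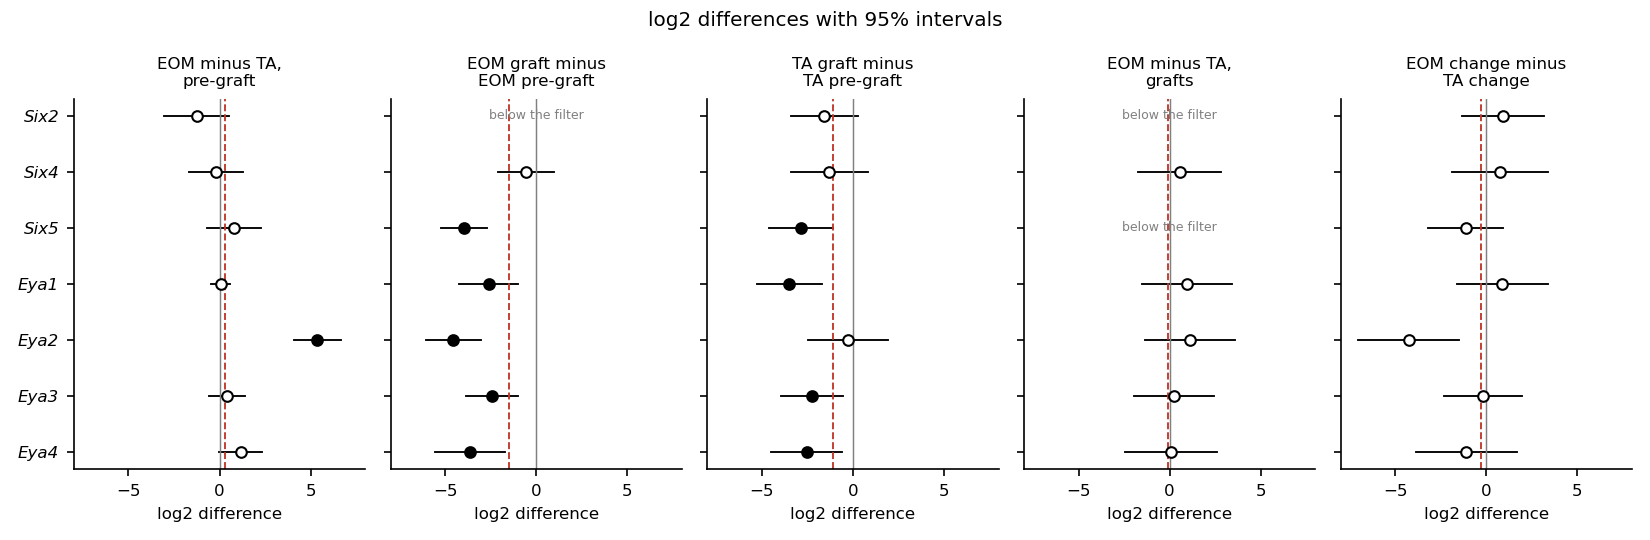
log2 difference (x axis) of each gene (y axis) in the 5 comparisons, with 95% intervals from limma, filled points for called genes, the median of all genes as a dashed red line and 0 as a grey line. Eya2 stands at 5.37 in the first panel, apart from the other members, and the members of the panels on grafting are read against medians of −1.48 for EOM and −1.09 for TA.

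After grafting, EOM cells held less Eya2 and no read of Six5. Six5, which encodes a homeodomain factor, lies at chr7:19094594-19098549 next to Dmpk. It had 10 to 112 reads in the 8 EOM pre-graft libraries, at 1.91 to 5.29 log2 RPM with a median of 2.90. There was no read in 7 of 7 EOM graft libraries, so the groups that passed quality control did not overlap. The excluded EOM pre-graft library Exp2_3 also held 0 reads of Six5, so this separation too depends on the exclusion. With 3 reads allowed in each graft library, Six5 was at least 5.99-fold lower in mean RPM, or 3.93-fold without EOM pre-graft Exp2_2, which held 112 reads. The floor covers counting error only. The fitted difference was −3.97 (SE 0.60; limma, adjusted p = 0.000138), lower in 6 of 6 donors with both libraries, at −4.23 in Experiment 1 and −3.99 in Experiment 2. Eya2 ran from 6.55 to 7.64 log2 RPM before and from −0.71 to 5.76 after grafting, with a median of 3.10 and no read in 2 of 7 libraries. Among libraries that passed quality control, all EOM graft libraries lay below all EOM pre-graft libraries. The excluded EOM pre-graft library Exp2_3, with Eya2 at 3.67, lay below EOM grafts Exp2_4 (3.73) and Exp1_4 (5.76). The difference of Eya2 was −4.54 (SE 0.73; 95% interval −6.06 to −3.03), 23.3-fold lower, and its level was lower in 6 of 6 donors, with donor differences of −7.98 to −1.35 (limma, adjusted p = 0.000213). The size of this fold, too, depends on the floor at which the 2 unread graft libraries stand. The mean RPM of Eya2, with unread values at 0, was 128 before and 13.1 after grafting, a smaller ratio. Experiment 1 has a single EOM graft library, which held 115 reads of Eya2 and gave a log2 difference of −1.26. The 6 graft libraries of Experiment 2 gave −5.07.

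The RPM of most genes was lower after grafting, and the change of each member is therefore read against that of all genes. Of the genes tested in EOM cells, 88.4% had a difference below 0. The share of all genes whose groups did not overlap is not given here. The median gene changed by −1.48 in EOM cells. Relative to it, Eya2 changed by −3.07, or 8.38-fold, and 0.458% of the genes tested had a lower difference. The fitted difference of Six5 depends on where unread genes stand, so its bound is given instead: −2.58, or −1.11 relative to the median gene, below which 13.97% of the genes lay. These values rest in part on EOM pre-graft Exp2_2, without which the bound was 3.93-fold in place of 5.99-fold. The bound is a ratio of mean RPM, whereas the values of the other genes are differences of mean log2 RPM. Its place among them is therefore only approximate. Eya4 fell by 3.63 (SE 0.92; limma, adjusted p = 0.00357), Eya1 by 2.62 (SE 0.79; adjusted p = 0.00949) and Eya3 by 2.43 (SE 0.68; adjusted p = 0.00617), which is −2.16, −1.14 and −0.96 relative to the median gene. Their graft libraries overlapped the pre-graft ones. Eya1 ran from −0.71 to 6.75 log2 RPM after grafting, Eya4 from −1.14 to 5.64 and Eya3 from −0.09 to 4.82. The highest Eya1 and Eya4 values were those of the Experiment 1 graft library, Exp1_4, where Eya1 stood 1.20 above the pre-graft mean of its experiment, Eya4 differed by −0.29 and Eya3 by −4.34. In Experiment 2 Eya1 changed by −3.46, Eya4 by −4.19 and Eya3 by −2.32. Over the 12 alternatives the adjusted p-values (limma, edgeR or DESeq2) reached adjusted p = 0.607 for Eya1, 0.540 for Eya3 and 0.610 for Eya4. Six4 was not called: it ran from −0.71 to 5.02 after grafting, and its difference of −0.56 (−2.09 to 0.97) turned to 0.31 without mitochondrial genes in the scaling, 0.69 on the library median, 0.99 with edgeR and 1.08 with DESeq2. Six2 was below the filter on low values in this comparison, with 3 reads in 1 of 7 graft libraries.

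In all, 5 of the 6 members tested were called lower in EOM cells after grafting, where 59.3% of all genes were called (7762 of 13094) and 55.8% were called lower. The median difference of these 6 members was −3.12, beside −1.48 for all genes. It was −2.60 with Six5 at its bound, which is a ratio of mean RPM and so not a like measure. The scaling decides much of this count. With mitochondrial genes left out of the scaling, 3 members (Eya2, Eya4 and Six5) were called lower, where 12.4% of all genes were. With libraries centred on their median 2 were, where 4.84% of genes were, and with the recovered reads 2 were by edgeR, where 2.90% of genes were, and 2 by DESeq2, where 4.17% were. The members were Eya2 and Six5 in each of these 3, with Eya2 at −3.29, −2.38 and −2.31. Genes called higher and lower numbered 460 and 7302 with the authors' scaling, 681 and 1627 without mitochondrial genes, 871 and 634 on the library median, 907 and 380 with edgeR and 1196 and 546 with DESeq2. Eya2 and Six5 were called lower in all 11 alternatives on the libraries that passed quality control and with each of the 15 libraries left out. The alternative with all libraries supports none of this: it adds an EOM pre-graft library of 2526 reads, Exp1_1, whose genes without a read stand at 10.74 log2 RPM.

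In TA cells, which went back into the muscle they came from, Eya1 was the member called lower in the most alternatives. It ran from 5.24 to 6.76 log2 RPM with a median of 5.94 before grafting and from −1.14 to 5.68 with a median of 1.30 after it. Of the 7 TA graft libraries 5 lay below all TA pre-graft libraries, and 3 held over 3 reads. The difference was −3.50 (SE 0.86; 95% interval −5.27 to −1.72), lower in 6 of 7 donors (limma, adjusted p = 0.0056), and −2.41 relative to the median gene of −1.09. It was −5.13 in Experiment 1, with 1 graft library, and −3.28 in Experiment 2. The call was lost with edgeR (difference −1.14, adjusted p = 0.367) and DESeq2 (−1.10, adjusted p = 0.34), and the alternatives lay between −3.62 and −1.10.

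Six5 had reads in 7 of 8 TA pre-graft libraries, up to 56, and in 1 of 7 TA graft libraries, Exp2_1, with 8 reads. Its difference was −2.84 (SE 0.85; limma, adjusted p = 0.0155) and −1.75 relative to the median gene, lower in 6 of 7 donors, at −3.17 in Experiment 1 and −2.85 in Experiment 2. The sign of Six5 was kept in all alternatives, and its call was lost in 6 of the 10 on passing libraries, among them Experiment 2 alone (adjusted p = 0.057) and DESeq2 (adjusted p = 0.194), with adjusted p-values from 0.00409 to 0.202. Dmpk, the gene before Six5 on the same strand (chr7:19083849-19093821), encodes a muscle kinase. Dmpk was also lower after grafting, from 6.76 ± 0.51 to 4.85 ± 1.83 log2 RPM in EOM (difference −1.91, limma adjusted p = 0.0105) and from 6.67 ± 0.29 to 4.35 ± 1.11 in TA (−2.32, adjusted p = 0.00141), which is −0.44 and −1.23 relative to the median gene, with reads in all of these libraries.

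Eya3 (difference −2.25; limma, adjusted p = 0.036) and Eya4 (−2.53; adjusted p = 0.0405) passed the threshold in TA by little. In Experiments 1 and 2 Eya3 differed by −0.44 and −2.55 and Eya4 by −4.97 and −1.84. Over the alternatives the adjusted p reached 0.327 for Eya3 and 0.355 for Eya4. With the donor as a replicate block, which uses the pairing of libraries by donor, neither was called (Eya3 −2.17, adjusted p = 0.0673, and Eya4 −2.33, adjusted p = 0.066), and 2 members, Eya1 and Six5, were called in place of 4. The call of Eya3 was lost when any of 8 libraries was left out, TA pre-graft Exp1_4 (−2.17), Exp2_2 (−2.07), Exp2_4 (−2.07), Exp2_5 (−2.18) or Exp2_6 (−2.17) or TA graft Exp2_3 (−2.24), Exp2_4 (−2.03) or Exp2_6 (−1.71). The call of Eya4 was lost without TA pre-graft Exp1_3 (−2.24), Exp1_4 (−2.33), Exp2_3 (−2.52), Exp2_4 (−2.38) or Exp2_5 (−2.48) or TA graft Exp1_3 (−2.42), Exp2_3 (−2.11) or Exp2_6 (−1.97). Eya2, already low in TA cells, ran from −1.14 to 4.44 log2 RPM in the TA grafts, with no read in 3 of 7 libraries and 34 reads at most. Its difference of −0.27 (−2.46 to 1.91) turned to 0.32 without mitochondrial genes, 0.62 on the library median, 1.35 with edgeR and 1.44 with DESeq2. Eya2 was higher after grafting in 5 of 7 donors and lower in 2 (median donor difference 0.42). Six4 (−1.30; −3.40 to 0.80) and Six2 (−1.56; −3.41 to 0.28) were not called. Six2 had a read in 2 of 7 TA graft libraries, and 20 of its 21 reads were in Exp2_2. Without this library Six2 was called lower (−2.17, limma adjusted p = 0.0437).

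Of the 7 members tested in TA, 4 were called lower after grafting, where 34.7% of all genes were called (4542 of 13076) and 30.9% were called lower. Their median difference was −2.25, beside −1.09 for all genes. Without mitochondrial genes in the scaling 1 member (Eya1) was called lower, where 11.9% of genes were. On the library median it was again Eya1 alone, where 5.68% of genes were. With edgeR and DESeq2 no member was called, where 3.07% and 4.15% of genes were called lower. The changes in EOM and in TA share no library, but their cells come from the same donors and the grafts of a donor were in the same recipient, so they are not independent. Each also shares its pre-graft libraries with the comparison of the muscles before grafting.

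**Figure D4:**
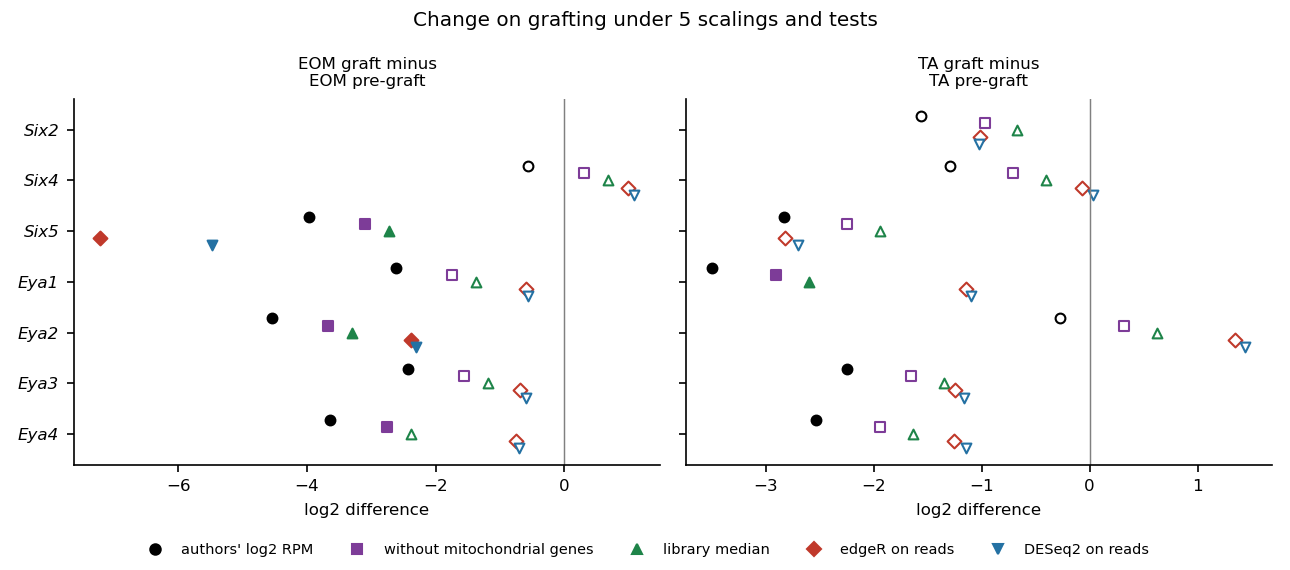
log2 difference after against before grafting (x axis) of each gene (y axis) in EOM (left) and TA (right) with the authors' scaling, without mitochondrial genes, on the library median and with edgeR and DESeq2 on recovered reads, with filled symbols for called genes. Eya2 in EOM is filled for all 5 at −4.54 to −2.31, whereas in TA it lies on both sides of 0, from −0.27 to 1.44.

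Between EOM and TA cells after grafting, no member was called. In the grafts Eya2 stood at 2.42 ± 2.33 log2 RPM in EOM and 1.32 ± 2.70 in TA (SD, n = 7 and 7), a difference of 1.10 with an interval of −1.37 to 3.57, in place of 5.37 before grafting. EOM was higher in 3 of 6 donors, and the difference was 1.92 in Experiment 1 (a library each) and 0.97 in Experiment 2. The interval lies below 4.10, the lower end of the interval before grafting, and still allows a difference of over 8-fold in favour of EOM. The differences of Six4, Eya1, Eya3 and Eya4 were 0.55, 0.95, 0.23 and 0.07, with intervals that all reach beyond 2-fold in both directions. Eya1 and Six4 were lower in EOM in 4 of 6 donors each (median differences −1.42 and −0.56), and their differences in Experiment 2 were 0.067 and 0.088, against 6.23 and 3.30 between the single libraries of Experiment 1. Six2 and Six5 were below the filter. Of all genes 0% were called (0 of 12377 by limma), 452 had an unadjusted p under 0.05, and edgeR called 0 and DESeq2 3.

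Whether the change on grafting differed between EOM and TA cells was tested as the difference of the changes over all 4 groups. For Eya2 this was −4.27 (SE 1.37; 95% interval −7.04 to −1.50). It did not pass the threshold after adjustment over all genes (limma, adjusted p = 0.366), nor in any alternative. On the libraries that passed quality control the alternatives lay between −4.47 and −3.76 with adjusted p-values of 0.144 to 0.621. Of all genes 0.208% were called (30 of 14428). Of the 7 members none was, 1041 genes had an unadjusted p under 0.05, and edgeR called 2 genes, and DESeq2 called 71 higher and 32 lower. Only 0.243% of the genes tested had a lower value than Eya2. For the other members the differences of the changes ran from −1.14 (Six5) to 0.93 (Six2), and each interval included 0. A larger decrease in cells of either muscle was therefore not shown for any member at this depth.

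**Figure D5:**
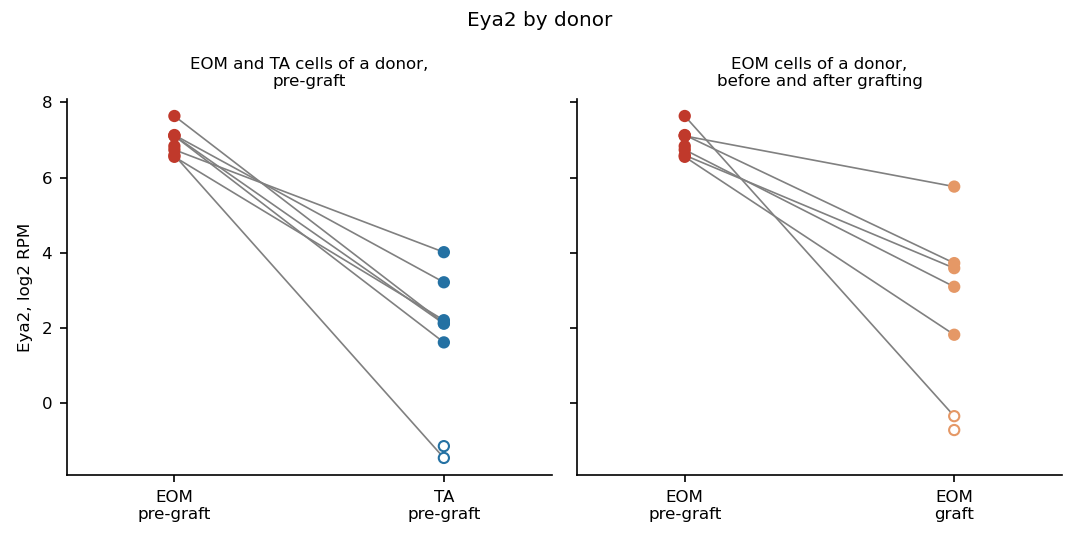
Eya2 in log2 RPM (y axis), with lines joining the EOM and TA pre-graft libraries of a donor (left, 7 donors) and the EOM libraries of a donor before and after grafting (right, 6 donors), and open points for libraries without a read. All lines go down, by 2.72 to 8.05 on the left, and the EOM graft library nearest to its pre-graft library is at 5.76.

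The partner list held 14 genes: the Dach and Ski cofactors, Sobp, the Groucho-type corepressors Tle1, Tle2, Tle3, Tle4, Tle6 and Aes, the factors Pax3 and Pax7, and H2afx, the histone on which Eya phosphatases act. Before grafting, 2 of 13 tested were lower in EOM and 0 higher, where 166 of all 13217 genes were called lower and 437 higher. Pax3, which marks many limb but few extraocular progenitors, had reads in 1 of 8 EOM and 8 of 8 TA pre-graft libraries (−0.56 ± 1.80 and 4.42 ± 0.49 log2 RPM; difference −4.98, limma adjusted p = 3.95e-05). Pax7, whose transgene served for the sort, stood at 8.57 ± 0.40 in EOM and 9.72 ± 0.57 in TA (difference −1.15, adjusted p = 0.00153). After grafting 10 of 12 partners tested were lower in EOM cells, where 55.8% of all genes were, and 0 higher, with a median of −1.87 beside −1.48 for all genes. They were Tle2 (−3.63), Sobp (−2.56), Tle6 (−2.55), H2afx (−2.27), Skil (−2.09), Pax7 (−1.94), Tle3 (−1.80), Ski (−1.80), Tle4 (−1.49) and Aes (−1.21). These calls were mostly lost with the scaling: 2 of the 12 were called lower without mitochondrial genes, 1 on the library median, and 0 with edgeR and DESeq2, which called 1 higher. With the donor as a replicate block the EOM calls of Sobp, Tle3, Tle4 and Tle6 were lost too. In TA cells, where 30.9% of all genes were called lower, 6 of 13 were (Tle2 −3.59, Pax3 −3.33, Pax7 −3.07, H2afx −1.78, Ski −1.12, Skil −1.10) and Dach1, a cofactor that binds Eya proteins, was higher (2.06, adjusted p = 0.0468 by limma), with a median of −1.01 beside −1.09 for all genes. Between 1 and 3 of the 13 were called lower and 2 higher in each of the other scalings and tests, and Ski and Skil lost their TA calls with the replicate block. Pax3 lost its TA call in 5 of 12 alternatives, among them Experiment 2 alone, with a difference as small as −0.29 (adjusted p up to 0.90), and H2afx lost its call in 4, also with Experiment 2 alone. Dach1 stood at 2.23 ± 1.67 before and 4.29 ± 1.11 after grafting, and lost its call without a filter, with the donor as a replicate block, with experiment as a covariate and in Experiment 2 alone.

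The target list held 15 muscle genes known to be regulated by Six-family proteins. Before grafting 4 of 15 were lower in EOM and 0 higher, with a list median of −1.76 beside 0.30 for all genes, of which 166 of 13217 were called lower. Lbx1, a homeobox gene of migrating limb progenitors, had no read in 8 of 8 EOM pre-graft libraries and 19 to 48 reads in the TA ones, at least 14.6-fold lower (12.6-fold without TA pre-graft Exp2_4). Pax3, on both lists, is given above. Myod1 stood at 7.92 ± 0.66 in EOM and 9.94 ± 0.48 in TA (difference −2.02, limma adjusted p = 9.83e-06), and Myh4, a fast myosin, at −0.24 ± 1.18 and 2.38 ± 1.41 (−2.63, adjusted p = 0.0196). The calls of Pax7 and Myod1 were lost in 1 fit over all groups, that of Pax3 with all libraries, and that of Myh4 in 4 of 11 alternatives. After grafting of EOM cells, 4 of 13 were higher, all genes of the contractile or metabolic apparatus of fibres: Pvalb (4.49), Myh4 (4.04), Ckm (3.99) and Tnni2 (3.69). The 4 that were lower were Myf6 (−3.07), Myf5 (−2.72), Met (−2.64) and Aldoa (−1.12), and the list median was 0.27 beside −1.48 for all genes. Of all 13094 genes 460 were called higher and 55.8% lower. After grafting of TA cells, Tnni2 was higher (2.34) and 8 of 15 were lower, where 496 of all 13076 genes were called higher and 30.9% lower, with a list median of −1.34 beside −1.09: Lbx1 (−4.81), Pax3 (−3.33), Myf5 (−3.06), Myod1 (−2.42), Met (−2.36), Atp2a1 (−1.74), Aldoa (−1.34) and Myog, which had no read in any of the 7 TA graft libraries and was at least 15.3-fold lower in mean RPM. Myog had reads in 5 of 8 TA pre-graft libraries, its bound was 11.7-fold without Exp1_3, and its call was lost without mitochondrial genes and on the library median. Of 12 alternatives in TA, Atp2a1 was called in 7, Aldoa in 8, Met in 9, Tnni2 and Myod1 in 10, Myf5 in 11 and Lbx1 in 12. Tnni2 and Atp2a1 were not called in Experiment 2 alone. With the other scalings and tests, 6 to 7 of 13 targets were called higher and 1 to 2 lower in EOM, and 3 to 4 of 15 were called higher and 2 to 4 lower in TA. Lbx1 was also called for the difference of the changes (5.23, limma adjusted p = 0.000104), with EOM libraries at the floor before and after grafting and TA libraries falling towards it, and lost this call with edgeR, DESeq2 and all libraries.

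Markers of muscle stem cells and of other cell types moved with grafting in the same libraries. All 10 MuSC markers (Pax7, Myf5, Calcr, Cdh15, Itga7, Vcam1, Sdc4, Spry1, Fgfr4 and Heyl) had reads in every group. With the authors' scaling all 10 were called lower after grafting in both muscles. The median differences were −2.33 in EOM and −2.81 in TA beside −1.48 and −1.09 for all genes, of which 55.8% and 30.9% were called lower. Pax7 lost its EOM call without mitochondrial genes, on the library median, with edgeR and with DESeq2 (difference as small as −0.37). In TA Pax7 was called in all 12 alternatives. Myf5 lost its EOM call with edgeR and DESeq2 and its TA call with edgeR. For the other markers no alternative is given here. The summed RPM of the 10 markers had medians of 13932 in EOM pre-graft, 14973 in TA pre-graft, 3709 in EOM graft and 3050 in TA graft libraries, with Sdc4 the most abundant. Genes called higher after grafting numbered 460 of 13094 in EOM and 496 of 13076 in TA. Of 8 endothelial markers 7 were called higher in both muscles. Their summed RPM rose from a median of 245 (97.1 to 740) to 2111 (196 to 2981) in EOM and from 434 (17.1 to 1774) to 2679 (860 to 4179) in TA. By mean log2 RPM Flt1 was the highest of them in both graft groups, and Tek in EOM pre-graft and Esam in TA pre-graft libraries. Of the myofibre markers 7 of 9 tested were higher in EOM grafts, and 2 were higher and 1 lower in TA grafts; their summed RPM had medians of 102.8, 229, 469 and 376 in the 4 groups, with Acta1 highest in the grafts and Atp2a1 before grafting. The myofibre list shares 6 genes with the target list, among them the 4 targets called higher in EOM grafts, and the MuSC list shares Myf5 with it and Pax7 with the partners, so these counts are not separate. Of 8 fibro-adipogenic markers 2 were lower in EOM grafts, and 4 were higher and 2 lower in TA grafts, with summed medians of 5221, 4058, 1936 and 1412 and Gsn the most abundant. Their part in the changes of the Six- and Eya-family genes was not tested.

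The macrophage and lymphocyte lists were lowly read in most libraries. Of the 7 macrophage markers in the table, 1 of 4 tested was lower in EOM grafts and 1 of 3 higher in TA grafts, with summed medians of 26.4 to 35.9 RPM in the 4 groups; Lyz2 was highest by mean log2 RPM in EOM grafts, Csf1r in EOM pre-graft and Cd68 in the TA libraries of both stages, and C1qa and C1qc had no read in the TA libraries of either stage. Lymphocyte markers summed to medians of 0 to 5.61 RPM, with Cd79a called lower in EOM grafts, and no read of Cd3d and Nkg7 in any library of the 30. Schwann cell markers summed to a median of 535 RPM (17.0 to 2665) in EOM pre-graft and 21.2 (16.6 to 445) in TA pre-graft libraries; 1 of 6 tested, Mbp, was higher in EOM than in TA before grafting (difference 5.17, limma adjusted p = 0.00642), and 3 of 6 were lower in EOM after grafting. EOM pre-graft libraries, the group with high Eya2, had the highest median sum of the 4 groups for Schwann cell markers. The same held for fibro-adipogenic (5221 RPM) and lymphocyte (5.61 RPM) markers. The 3 erythroid markers in the table, led by Hba-a1, had medians of 0.941 (0 to 2322), 0.820 (0 to 4886), 2342 (0 to 2976) and 3.54 (0 to 939) RPM in EOM pre-graft, TA pre-graft, EOM graft and TA graft libraries, and 1 was called higher in EOM grafts. Before grafting the remaining calls were Tek (1.45) and Dcn (5.62) higher and Cdh5 (−4.09) and Acta1 (−2.89) lower in EOM. The part of these cell types in the difference of Eya2 was not tested.

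The genes whose log2 RPM went most closely with each member were ranked by Pearson's r over the 30 libraries and 13228 genes, as a description in which libraries share their group, depth and mitochondrial share. Eya1 went with Met (r = 0.94), Bves (0.93) and Klhl22 (0.92), and with Met also within the groups (0.92 after subtraction of group means). Met encodes the receptor of hepatocyte growth factor. Eya4 went with Rrnad1 (0.85) and Adcy3 (0.85). Eya2 went with Lmx1a (0.80), Slc38a4 (0.80) and Fam70a (0.79), but within the groups its r with Lmx1a, a homeobox gene, was 0.27. Six5 went with Zfp768 (0.84), Ptgfr (0.84) and Cbs (0.83), Eya3 with Urod (0.84), Ndn (0.82) and Gart (0.82), Six4 with Ppp1r10 (0.80), Slc16a1 (0.75) and Arhgef6 (0.74), and Six2 with Hunk (0.65) and 1700021C14Rik (0.65). Among the members themselves the highest r was that of Eya1 with Eya4 (0.58, and 0.30 within the groups).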

How the data were processed

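The authors made the libraries by G&T-seq (RNA and DNA of the same lysate separated), sequenced them as paired 75 bp reads on a HiSeq-2500, trimmed them with Trim Galore 0.4.4, aligned them with HISAT2 2.1.0 to GRCm38 and quantified genes in SeqMonk; the annotation release, counting rule and use of strand are not stated. The deposited gene table holds log2 values (log2 RPM), the deposited library summary holds counts of mapped reads, and the deposited quality report holds percent values per library. Of 25965 rows, 66 repeating a symbol were dropped. Reads were recovered from the log2 steps of each library, with genes without a read at 0.9 of a read: 99.99% of values were whole within 0.05 read. The 40 bisulfite libraries were not analysed here, and libraries failing the study's quality control entered an alternative only.

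Groups were compared on log2 RPM by limma 3.58.1 (R 4.3.3) with a mean-variance trend, over genes whose log2 RPM passed 1 in 4 or more libraries of a comparison, with Benjamini-Hochberg adjustment over all of them; called means adjusted p under 0.05 and a log2 difference beyond 1. Alternatives were log2 of RPM plus 1, no filter, a stricter filter, donor as a block, a covariate for experiment, all libraries, Experiment 2 by itself, mitochondrial genes out of the scaling, a joint fit of the 4 groups, library medians, edgeR 4.0.16 and DESeq2 1.42.0 on recovered reads, and each library left out. The fits were run on simulated reads in which only well-read genes were changed and every gene had the same dispersion. Changes of genes as sparsely read as the members were after grafting were not simulated. Libraries are paired by donor mouse per the study's design; deviations of same-donor libraries correlated at −0.08 to 0.19 (median 0.07) before grafting. The members and lists were chosen with earlier results of these data known. Named are all members, every called partner or target gene, the 3 genes most alike to each member, and Dmpk, with a few of these genes left out of the text; markers were named after their values were seen. Floors of 3 reads cover counting error only.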

Additional observations from a re-analysis of the deposited data

Results flagged for a closer look

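In 28 groups (7 genes in 4 groups of libraries) 4 values stood apart from the other libraries of their group by Dixon's gap over range at the 5% level. Chance alone reaches this level in about 1 in 20 groups of normally distributed values. In TA grafts the other values of Six2 and Six5 lay at or near the floor, where this rate does not hold. Six2 in TA graft Exp2_2 stood at 3.37 log2 RPM (20 reads), the other 6 libraries at −1.22 to −0.44. Six5 in TA graft Exp2_1 stood at 2.34 (8 reads), the others without a read. Eya3 and Eya4 in TA pre-graft Exp2_1 stood at 1.45 (5 reads) and 0.72 (3 reads), the others at 3.70 to 5.57 and at 4.09 to 6.81. The 10 libraries that failed quality control held 33 of 70 member values over 3 reads, among them Eya2 with 21, 44 and 47 reads in 3 EOM graft libraries of Experiment 1, and with 29 reads, at 3.67 log2 RPM, in EOM pre-graft Exp2_3, below the passing EOM pre-graft libraries (6.55 to 7.64) and below the highest TA pre-graft library (4.02).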

How the results depend on the processing

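Over the alternatives other than leaving out a library, 305 of 373 differences of single members kept their direction and their side of the threshold, 35 lost the call and 33 changed sign; over single libraries left out these were 546, 16 and 24 of 587, and 1 was gained. The difference of Eya2 before grafting (4.46 to 5.43 over the alternatives, 4.94 to 5.72 with a library left out) and the decreases of Eya2 and Six5 in EOM were called in all of them. The values with all libraries support no result, since an EOM pre-graft library of 2526 reads enters with unread genes at 10.74 log2 RPM. The causes of the changes were not tested. No value could be had for Six2 under the stricter filter, nor for Six5 there in TA.

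Of 5 members called in EOM after grafting, 3 were called without mitochondrial genes and 2 each on the library median, with edgeR and with DESeq2. Of 4 in TA, 2 each were called without a filter, with the donor as a replicate block (the paired fit) and with experiment as covariate, 1 each in Experiment 2 alone, without mitochondrial genes and on the library median, 0 each with edgeR and DESeq2. With a library left out 2 to 5 members were called in TA, the fifth being Six2. The replicate block changed no other call of a member; it gave 4760 called genes in EOM in place of 7762.

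No called difference of a member changed sign, while among the listed genes Aes (up to 0.24) and Aldoa (up to 0.14) in EOM and Atp2a1 (up to 0.21) in TA did. Before grafting, Six4 was 0.15 in Experiment 2 alone, 0.40 with all libraries and −0.88 to 0.042 with a library left out. Eya1 was −0.098 without mitochondrial genes, −0.17 on the library median, −0.19 with edgeR, −0.20 with DESeq2 and −0.043 to 0.18 with a library left out. Eya3 was −0.13 with edgeR and −0.15 with DESeq2. In EOM after grafting, Six4 was 0.17 with the replicate block, 0.31 without mitochondrial genes, 0.69 on the median, 0.99 with edgeR, 1.08 with DESeq2 and −0.91 to 0.050 with a library left out. In TA, Six4 was 0.035 with DESeq2, and Eya2 was 0.32 without mitochondrial genes, 0.62 on the median, 1.35 with edgeR, 1.44 with DESeq2 and −0.79 to 0.14 with a library left out. Between the grafts, Six4 was −0.015 with edgeR and −0.0011 with DESeq2, Eya4 −0.61 with the replicate block, −0.61 in Experiment 2 alone and −0.49 to 0.64 with a library left out, and Eya3 −0.31 to 0.63. For the difference of the changes, Six2 was −0.0037 with all libraries, Six4 −0.065 and Eya1 −0.18 in Experiment 2 alone, Eya4 0.48 with edgeR and 0.44 with DESeq2, and Eya3 0.23 in Experiment 2 alone, 0.028 with all libraries, 0.099 without mitochondrial genes, 0.22 on the median, 0.55 with edgeR, 0.58 with DESeq2 and −0.72 to 0.22 with a library left out.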
